A study of Mus musculus with 12 samples.

Results

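The genes described here are 10 genes of the Notch pathway (*Jag1*, *Notch1*, *Notch2*, *Notch4*, *Rbpj*, *Maml1*, *Dtx4*, *Hes1*, *Hey1* and *Nrarp*), taken by symbol from a table of 54532 genes. All 10 were in the table, and 8 of them passed the filter on low counts, *Hey1* and *Nrarp* being the exceptions. RNA-seq was performed on marrow cells from wild-type mice of the C57BL/6 strain, grown with GM-CSF and IL-6 and harvested on day 5. With these cytokines marrow cells mature into granulocytic and monocytic cells with immunosuppressive properties. The medium of the groups contained vehicle (DMSO), 10 µM or 50 µM indole-3-propionic acid (IPA), a metabolite that gut bacteria make from tryptophan, with 4 libraries per group. The study calls 50 µM a supraphysiological dose, found viability slightly reduced with it, and focused its own analysis on 10 µM. The part of viability in the results at 50 µM was not tested. The comparisons ask how the transcriptome of such cells responded to IPA. Nothing in the labels says whether replicates were separate mice or cultures, so p-values measure only the spread between these libraries, which may be technical.

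Notch receptors are single-pass membrane proteins that are activated by ligands on neighbouring cells. Ligand pulling lets ADAM proteases and then γ-secretase cut the receptor, and the freed intracellular domain enters the nucleus. There it binds the DNA-binding protein RBPJ and a Mastermind coactivator and switches RBPJ from repression to activation of genes such as *Hes1*, *Hey1* and *Nrarp*. In bone marrow and thymus the pathway is best known for directing progenitors to the T cell fate, and it also takes part in the maturation of monocytes, macrophages and dendritic cells.

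The libraries held between 20451312 and 28038612 counted reads. Neutrophil and monocyte genes had the highest sums of the marker lists. These were 10720 to 21525 CPM (counts scaled to a fixed library total) for 7 neutrophil genes and 6183 to 9339 CPM for 5 monocyte genes. Most of the monocyte sum came from *Lyz2*, with 5303, 6432 and 6911 CPM on average with vehicle, 10 µM and 50 µM. The CD3 genes, which define T cells, had group means of at most 0.257 (*Cd3e*), 0.334 (*Cd3g*) and 0.783 CPM (*Cd3d*). In each group 1 library had lower counts of long transcripts than the others. The slope of log2 CPM per doubling of exon length was -0.0383 in vehicle replicate 4, -0.0485 in 10 µM replicate 1 and -0.0664 in 50 µM replicate 3, and between -0.0119 and 0.041 in the other 9. In bulk RNA, fewer cells of a type and less RNA per cell cannot be told apart.

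Per kilobase of exon, counted over all annotated exons of a gene, *Rbpj* (34.4 ± 3.99 CPM per kb, SD, n = 12), *Notch2* (28.6 ± 2.76) and *Notch1* (24.8 ± 3.23) had the highest mean levels over all libraries, with overlapping ranges between neighbours. Within groups, *Rbpj* and *Notch2* were level with vehicle (29.7 CPM per kb each) but their ranges were separate at 10 µM and at 50 µM. *Dtx4* (13.0 ± 1.26) and *Maml1* (11.1 ± 1.36) followed, overlapping each other but not *Notch1*. *Jag1* (2.43 ± 0.835 CPM per kb) was separate from its neighbours in this order. *Notch4* (0.321 ± 0.138) overlapped *Hes1* (0.281 ± 0.169), and the order of their means reversed between vehicle (0.362 against 0.193) and 50 µM (0.178 against 0.412). *Nrarp* (0.0737 ± 0.0523) and *Hey1* (0.0160 ± 0.0217) were lowest. The cells thus contained transcripts of 2 receptors, the nuclear partners and 1 ligand well above those of the target genes.

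Stretches before a RefSeq start site of 4 members are shown because *Rbpj*, *Jag1* and *Notch4* are the members that passed the test below and *Nrarp* is a direct target of the pathway. They come from RefSeq promoters on GRCm38.p6, read 5′ to 3′ on the strand of the gene, and end before the exon that GENCODE M21 places in the window, where there is one. The *Rbpj* start shown is an internal one, downstream of the 5′ end that GENCODE gives the gene. *Rbpj* is chr5:53590096-53590213 (+ strand, 118 bases), *Jag1* is chr2:137116645-137116770 (- strand, 126 bases), *Notch4* is chr17:34564045-34564267 (+ strand, 223 bases) and *Nrarp* is chr2:25180508-25180757 (+ strand, 250 bases). Capitals mark TGGGAA, the core letters that RBPJ recognizes.
Rbpj: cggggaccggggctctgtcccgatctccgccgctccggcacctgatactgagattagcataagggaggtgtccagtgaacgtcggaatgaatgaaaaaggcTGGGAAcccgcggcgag
Jag1: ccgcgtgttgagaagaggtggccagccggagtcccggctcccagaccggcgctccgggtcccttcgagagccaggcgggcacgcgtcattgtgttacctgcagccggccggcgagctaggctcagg
Notch4: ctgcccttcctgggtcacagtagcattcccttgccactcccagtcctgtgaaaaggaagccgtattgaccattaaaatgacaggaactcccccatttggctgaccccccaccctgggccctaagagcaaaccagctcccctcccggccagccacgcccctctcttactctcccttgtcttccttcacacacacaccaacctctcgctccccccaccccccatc
Nrarp: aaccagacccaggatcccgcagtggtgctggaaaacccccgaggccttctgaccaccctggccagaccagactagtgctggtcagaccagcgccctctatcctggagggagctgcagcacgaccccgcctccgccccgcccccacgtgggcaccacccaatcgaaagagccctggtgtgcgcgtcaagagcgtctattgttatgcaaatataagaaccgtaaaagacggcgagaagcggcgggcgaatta

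Promoters were found for 7 of the 10 members, 8 windows of 250 bases in all because *Rbpj* has a pair of starts. TGGGAA, searched on both strands, was present in 2 of the 8 windows, both of *Rbpj*, which overlap and share 1 site, and in 21.6% of 32851 promoters of the same length. At the start shown it began 149 bases before the start site on the forward strand, and a copy on the opposite strand, the site shared with the other window, lay 65 bases before it, in a stretch annotated as exon and not printed. The longer GTGGGAA, which contains TGGGAA, was in 0 of the 8 windows and in 5.42% of all promoters. These matches describe letters only.

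**Figure D1:**
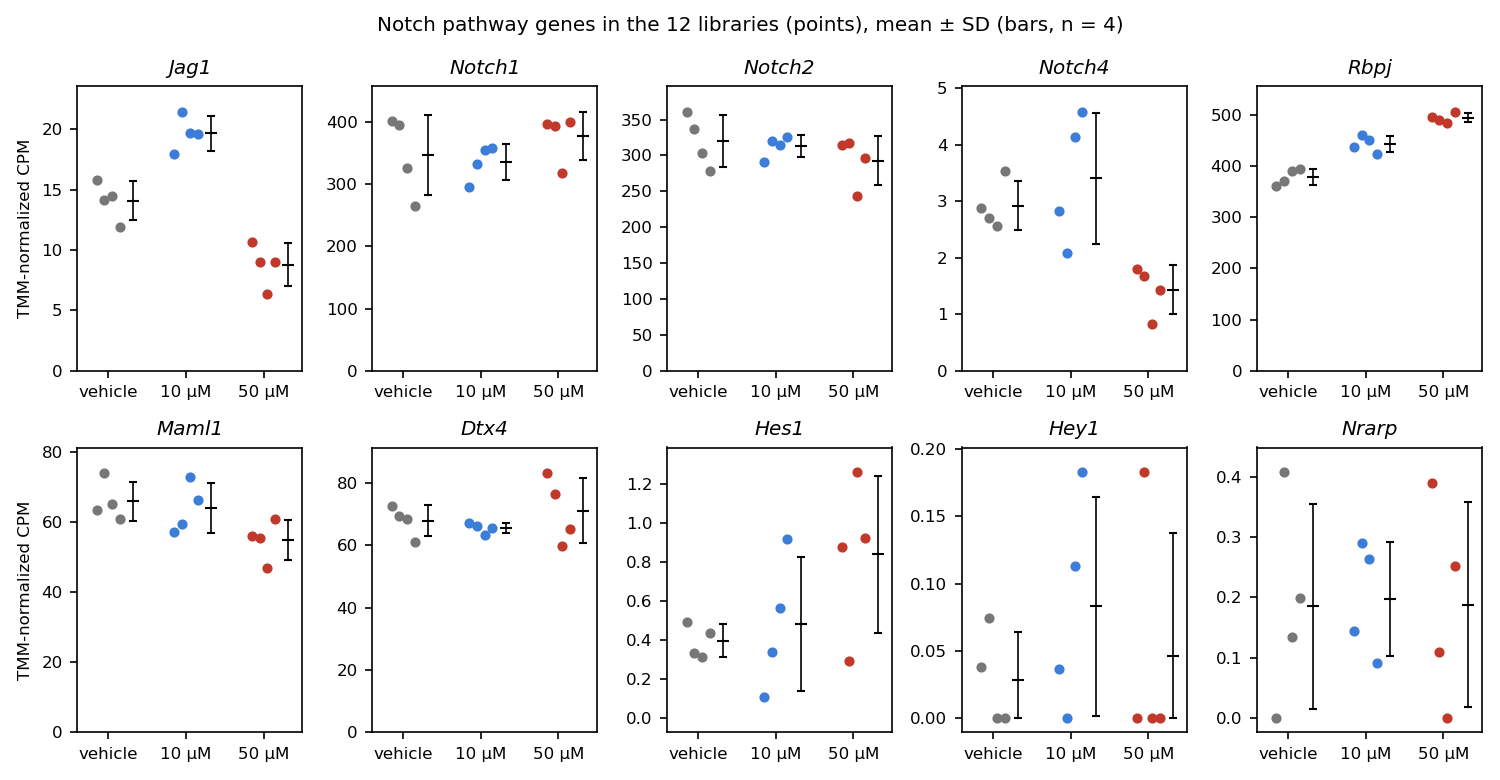
TMM-normalized CPM (y axis, linear) of the 10 Notch pathway genes in each library, grouped by treatment (x axis). Points are libraries and bars are mean ± SD (n = 4), with the lower bar ending at 0 where the SD exceeds the mean. *Rbpj* is separated between all groups, *Jag1* is highest at 10 µM and lowest at 50 µM, and *Hes1*, *Hey1* and *Nrarp* reach at most 1.26 CPM in any library.

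The ligand *Jag1*, which encodes the membrane-bound ligand Jagged1 (chromosome 2, 137081456-137116644, - strand), had its highest levels at 10 µM and fell at 50 µM. CPM here are scaled by TMM factors. *Jag1* was at 15.8, 14.1, 14.5 and 11.9 CPM in vehicle replicates 1 to 4. At 10 µM the replicates had 18.0, 21.4, 19.7 and 19.6 CPM, and at 50 µM 10.7, 9.04, 6.40 and 8.98 CPM. No library of any group fell within the range of another group, so the order was 10 µM above vehicle above 50 µM in every library, which held for 46 genes (0.309%) of 14894. Means were 14.1 ± 1.62, 19.7 ± 1.42 and 8.78 ± 1.77 CPM (SD, n = 4).

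Tests were edgeR's quasi-likelihood test with Benjamini-Hochberg adjustment over all genes, and a gene with an adjusted p below 0.05 was counted as changed. *Jag1* fell at 50 µM against vehicle (log2 fold change -0.67 ± 0.148 SE, adjusted p = 0.00918), and fell against 10 µM (-1.16 ± 0.132, adjusted p = 2.49e-05). At 10 µM it was 1.40 times the vehicle level (0.48 ± 0.103), with an adjusted p of 0.0874 that missed the threshold, while DESeq2 gave 0.00517. With a replicate block the adjusted p was 0.324. Of the 8 fits with a library left out, 0 passed at 10 µM, with adjusted p of up to 0.316 (without 10 µM replicate 2). Both calls at 50 µM were kept when any 1 library was left out. Summed levels of 8 macrophage genes were highest at 10 µM. They were 1592 to 1760.5 CPM in vehicle, 1805.5 to 2050.5 CPM at 10 µM and 1657 to 1762 CPM at 50 µM. The vehicle and 50 µM ranges overlapped. By edgeR, 2 of the 8 rose at 10 µM against vehicle, *C1qb* among them, where 0.410% of all genes changed. At 50 µM against vehicle 2 rose and 1 fell, where 13.5% of all genes changed. At 50 µM against 10 µM, where 15.4% of all genes changed, *Adgre1* rose, and *Csf1r*, *C1qa*, *C1qb*, *C1qc* and *Mertk* fell. Genes of stromal cells, which can express *Jag1*, summed to 8.38 to 14.2 CPM, 7.68 to 11.8 CPM and 5.13 to 6.42 CPM over 8 genes in the same order, with *Cxcl12*, *Pdgfra*, *Col1a2*, *Col3a1* and *Dcn* below 0.5 CPM in each group and *Lepr* called lower at 50 µM. Their part in the *Jag1* result was not tested.

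The receptors *Notch1* (chromosome 2, 26457903-26516663, - strand) and *Notch2* (chromosome 3, 98013527-98150361, + strand), the main receptors of blood cells, were abundant and passed the threshold in no comparison. *Notch1* had 402, 395, 326 and 265 CPM with vehicle, 295, 333, 355 and 358 CPM at 10 µM, and 397, 393, 319 and 400.0 CPM at 50 µM. The groups overlapped, and the lowest library of each group was the one with the lowest slope on exon length. Its log2 fold changes were -0.05 (95% interval -0.31 to 0.21) at 10 µM and 0.13 (-0.13 to 0.39) at 50 µM against vehicle. At 50 µM against 10 µM it was 0.17 ± 0.081 SE, with an adjusted p of 0.168 over all libraries and of 0.0257 without 50 µM replicate 3. *Notch2* had 361, 336, 304 and 279 CPM with vehicle, 291, 320.3, 315 and 326 CPM at 10 µM, and 314, 318, 243 and 296 CPM at 50 µM. It too was lowest in those 3 libraries, and its log2 fold changes against vehicle were -0.03 (-0.21 to 0.15) at 10 µM and -0.12 (-0.33 to 0.09) at 50 µM. The intervals leave room for changes of that size in either direction.

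**Figure D2:**
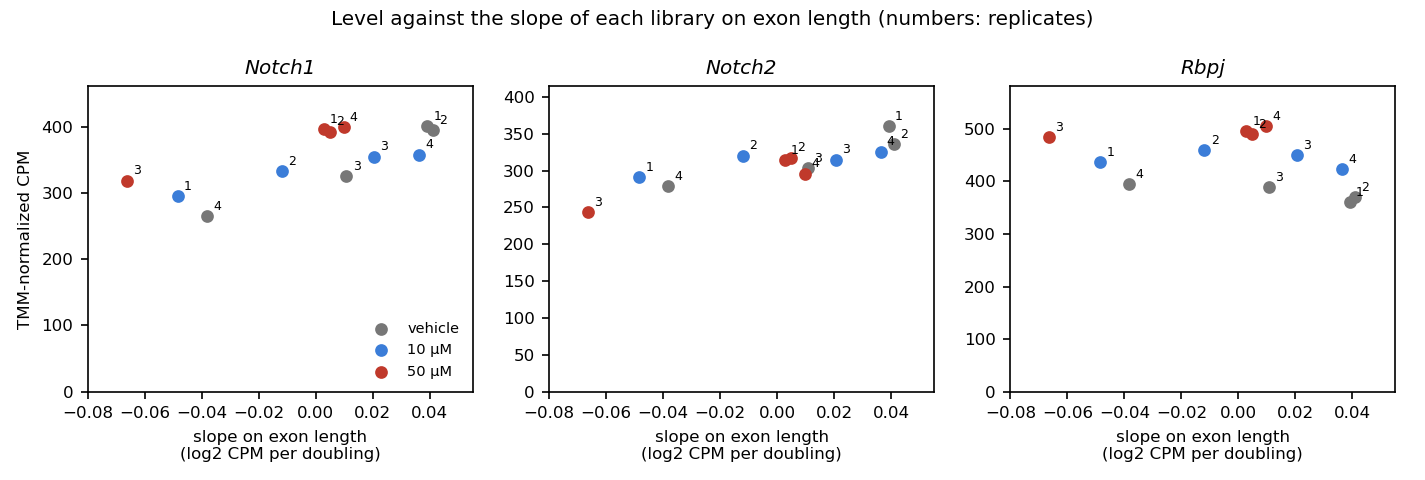
CPM (y axis, from 0) of *Notch1*, *Notch2* and *Rbpj* in each library against the slope of that library's log2 CPM on exon length (x axis), colored by group and numbered by replicate. The library with the lowest slope of each group has the lowest *Notch1* and *Notch2*, while *Rbpj* separates by group at any slope.

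*Notch4*, a receptor best known from endothelium (chromosome 17, 34564268-34588503, + strand), was low and fell at 50 µM. It had 2.87, 2.71, 2.55 and 3.54 CPM with vehicle, 2.82, 2.08, 4.14 and 4.58 CPM at 10 µM, and 1.81, 1.68, 0.825 and 1.43 CPM at 50 µM, from 17 to 110 counts per library. Each library at 50 µM was below those of the other groups, which overlapped one another. The log2 fold change was -1.01 ± 0.265 SE at 50 µM against vehicle (edgeR, adjusted p = 0.0226) and -1.24 ± 0.298 against 10 µM (adjusted p = 0.0103). The call against vehicle was lost without 50 µM replicate 4 (adjusted p = 0.0586) and kept in the other 7 fits with a library left out. At 10 µM it was 0.22 ± 0.249 (adjusted p = 0.892). Of 7 endothelial genes, *Cldn5* was at 0 in every group, and *Tek* and *Emcn* averaged below 0.5 CPM. *Cdh5* averaged 0.552, 0.789 and 0.362 CPM with vehicle, 10 µM and 50 µM, *Esam* 2.45, 1.65 and 2.33 CPM, and *Kdr* 6.45, 8.05 and 6.35 CPM. The 7 genes together summed to 64.0 to 76.8 CPM with vehicle, 68.4 to 76.2 CPM at 10 µM and 35.4 to 85.7 CPM at 50 µM. Most of this was *Vwf*, which megakaryocytes also express. At 50 µM against vehicle 0 of the 4 tested changed by edgeR or DESeq2, where 13.5% of all genes changed by edgeR. There 0 of the 4 had an unadjusted p under 0.05, against 27.9% of all genes. A count of 0 among 4 genes says little at these shares. Against 10 µM, 0 of the 4 changed by either tool (15.4% of all genes by edgeR). *Cdh5* and *Kdr* had an unadjusted p under 0.05 against 10 µM (29.5% of all genes had). *Kdr* was lower in all 50 µM libraries, and the median log2 fold change of the 4 was -0.28. Their part in the *Notch4* result was not tested.

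*Rbpj*, the DNA-binding protein on which canonical Notch signals converge (chromosome 5, 53466152-53657362, + strand), was higher at each dose and rose at 50 µM against vehicle. It had 361, 370.3, 389.7 and 394 CPM with vehicle, 436, 460.0, 449.9 and 424 CPM at 10 µM, and 495, 490.4, 485 and 506 CPM at 50 µM. Every 10 µM library lay above all vehicle libraries and below all 50 µM libraries, an order shared by 76 genes (0.510%) of those tested. Means were 379 ± 16.0, 443 ± 15.8 and 494 ± 8.82 CPM (SD, n = 4). *Rbpj* rose by 0.39 ± 0.064 SE on the log2 scale at 50 µM against vehicle (edgeR, adjusted p = 0.00141), 1.31 times the vehicle level, and this call was kept in all 8 fits with a library left out. The smaller steps were 0.22 ± 0.057 at 10 µM against vehicle, 1.17 times the vehicle level (adjusted p = 0.165, 0.0124 with DESeq2), and 0.16 ± 0.055 at 50 µM against 10 µM (adjusted p = 0.0587, 0.0136 with DESeq2). These missed the threshold with edgeR although the libraries did not overlap. With an offset for exon length the adjusted p of the 2 steps was 0.412 and 0.104. With a replicate block it was 0.558 and 0.0972. Of the 8 fits with a library left out, 0 passed for the first step and 1 for the second.

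Reads of *Rbpj* may be shared with its processed pseudogene *Rbpj-ps3*, which was looked at after the values had been seen. It was counted at 71.1 ± 1.03, 75.9 ± 9.00 and 90.6 ± 7.96 CPM and rose at 50 µM against vehicle (0.36 ± 0.077, adjusted p = 0.00774). The sum of both was 449.9 ± 15.7, 518 ± 22.2 and 585 ± 14.3 CPM in vehicle, 10 µM and 50 µM libraries, with no overlap between groups. The antisense gene *Gm40304*, within *Rbpj* on the opposite strand, had 13 to 63 counts per library and shares no exon bases with it.

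*Maml1*, a Mastermind coactivator that binds the Notch and RBPJ complex (chromosome 11, 50255634-50292311, - strand), was lower at 50 µM without passing the threshold. It had 63.4, 73.8, 65.0 and 60.9 CPM with vehicle, 57.1, 59.4, 72.7 and 66.2 CPM at 10 µM, and 55.9, 55.5, 47.0 and 60.8 CPM at 50 µM. The vehicle and 50 µM groups did not overlap, but their nearest libraries were almost equal. The log2 fold change at 50 µM against vehicle was -0.26 ± 0.091 SE with an adjusted p of 0.0823, which fell to 0.0322 without vehicle replicate 4. *Dtx4*, which encodes a Deltex ubiquitin ligase of the pathway (chromosome 19, 12466338-12501454, - strand), had 72.7, 69.4, 68.4 and 61.0 CPM with vehicle, 67.1, 66.1, 63.3 and 65.4 CPM at 10 µM, and 83.0, 76.3, 59.9 and 65.2 CPM at 50 µM. Its groups overlapped throughout, and its log2 fold changes against vehicle were -0.05 (95% interval -0.20 to 0.10) and 0.07 (-0.14 to 0.29).

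The target genes were near the floor. *Hes1*, a transcriptional repressor induced by Notch and by other signals (chromosome 16, 30064384-30067796, + strand), had 13, 9, 7 and 11 counts with vehicle, 3, 7, 15 and 20 counts at 10 µM, and 18, 8, 26 and 22 counts at 50 µM. That was 0.394 ± 0.0846, 0.482 ± 0.344 and 0.839 ± 0.402 CPM (SD, n = 4), and 3 of the 50 µM libraries lay above all vehicle libraries. The log2 fold change at 50 µM against vehicle, 1.07 (95% interval 0.01 to 2.13), had an adjusted p of 0.172. *Hey1*, a related repressor (chromosome 3, 8663359-8667256, - strand), had 1, 2, 0 and 0 counts with vehicle, 1, 0, 3 and 4 at 10 µM, and 0, 5, 0 and 0 at 50 µM. *Nrarp*, which encodes a feedback inhibitor of the Notch complex (chromosome 2, 25180758-25183339, + strand), had 0, 11, 3 and 5 counts with vehicle, 4, 6, 7 and 2 at 10 µM, and 8, 3, 0 and 6 at 50 µM, while the antisense gene *Gm38287* that overlaps it had 0 counts. A count of 0 allows up to 3 counts, or 0.134, 0.144 and 0.147 CPM in the smallest library of the vehicle, 10 µM and 50 µM groups, counting error only. Differences in *Hey1* and *Nrarp* were not detectable at this depth, and without the filter their adjusted p lay between 0.799 and 0.997.

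Over the members tested, 0 of 8 changed at 10 µM against vehicle by edgeR, with 2 (*Rbpj* and *Jag1*) at an unadjusted p under 0.05 and both called by DESeq2. Of all genes 0.410% changed there by edgeR and 1.86% by DESeq2, and 8.78% had an unadjusted p under 0.05. *Jag1* was also called by edgeR without the filter on low counts or with an offset for exon length, where 0.600% and 0.685% of all genes changed. At 50 µM against vehicle 3 of 8 changed, *Rbpj* upward and *Jag1* and *Notch4* downward, where 13.5% of all genes changed, 7.00% upward and 6.50% downward. At 50 µM against 10 µM 2 of 8 changed, *Jag1* and *Notch4*, both downward, against 15.4% of all genes, 7.52% upward and 7.85% downward. Groups did not overlap for 2, 4 and 3 of the 8 members in the same order, against 6.12%, 20.0% and 20.3% of all genes. The median log2 fold change of the 8 members was 0.10, -0.02 and 0.01 in these comparisons, beside -0.01, 0.01 and 0.01 for all genes. The comparisons share libraries, so they are not independent of each other.

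**Figure D3:**
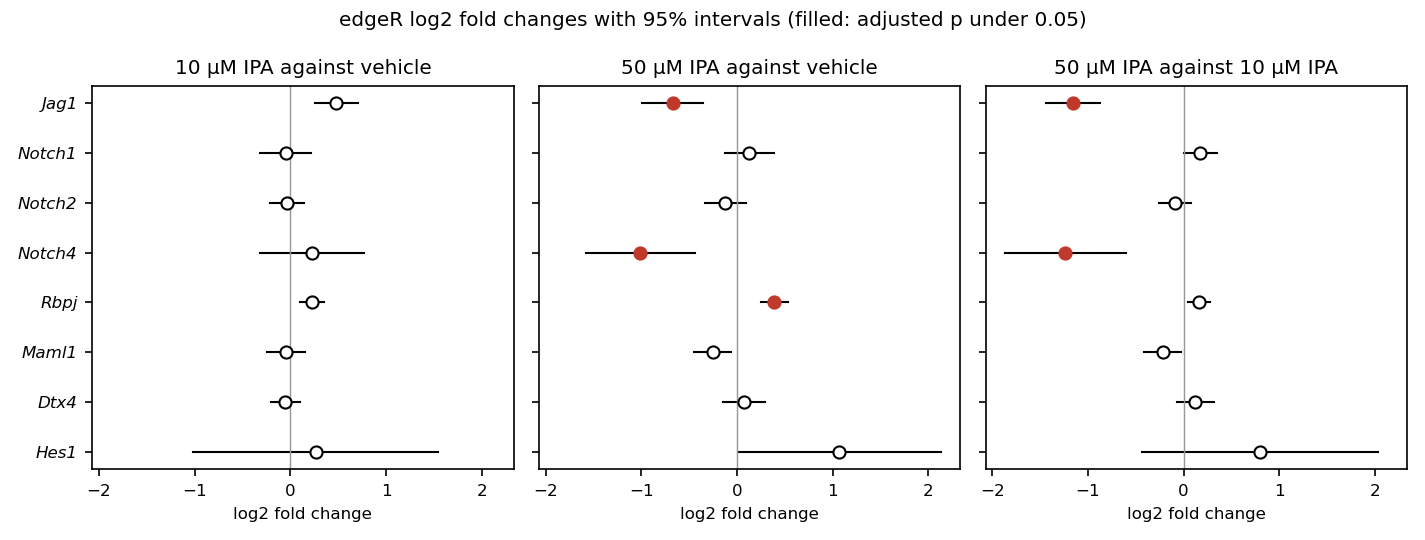
Log2 fold changes (x axis) of the 8 tested Notch genes in the 3 comparisons, with 95% intervals from edgeR. Filled points have an adjusted p below 0.05: *Jag1*, *Notch4* and *Rbpj* at 50 µM against vehicle, and *Jag1* and *Notch4* at 50 µM against 10 µM.

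Of the 4 libraries at 50 µM, replicate 3 was the lowest for 7 of the 8 tested members and the highest for *Hes1*. Without it, the log2 fold changes at 50 µM against vehicle were 0.40 ± 0.065 SE for *Rbpj* (edgeR, adjusted p = 0.00345), -0.56 ± 0.128 for *Jag1* (0.0192) and -0.83 ± 0.234 for *Notch4* (0.0458). Against 10 µM, *Rbpj* (0.17 ± 0.054, adjusted p = 0.0480) and *Notch1* (0.25 ± 0.067, adjusted p = 0.0257) then passed the threshold together with *Jag1* and *Notch4*.

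The genes whose profile over the 12 libraries was nearest to that of each changed member were found by the root mean square difference of log2 CPM, each gene centred on its mean, among 12606 genes. For *Rbpj*, whose own profile varied around its mean by 0.163 (root mean square), they were *Ripk2* (0.0479), a kinase of NOD receptor signaling, *Acsl4* (0.0546), a fatty acid acyl-CoA synthetase, and *Tpm4* (0.0577), a tropomyosin. *Ripk2* averaged 29.6, 33.3 and 37.2 CPM with vehicle, 10 µM and 50 µM. For *Jag1*, which varied by 0.516, they were the cholesterol exporter *Abca1* (0.148), *Flrt3* (0.152) and the proteoglycan syndecan-1, *Sdc1* (0.156). *Sdc1* averaged 42.1, 63.4 and 27.6 CPM. For *Notch4*, which varied by 0.639, they were the matrix proteoglycan versican, *Vcan* (0.288), the AP-1 member *Fosl1* (0.293) and *Scel* (0.304), a less close match. These genes were chosen for their likeness, so their values are a description.

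**Figure D4:**
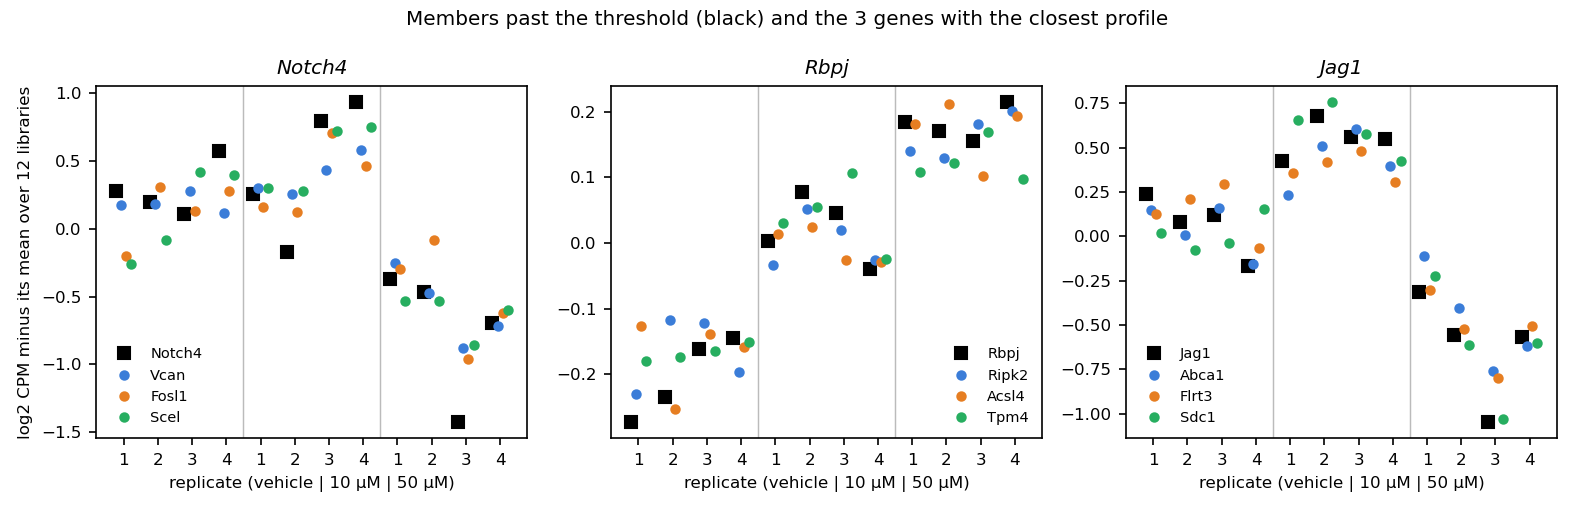
Log2 CPM minus the gene's mean over 12 libraries (y axis) for *Notch4*, *Rbpj* and *Jag1* (black squares) and the 3 genes with the nearest profile (circles), by replicate within vehicle, 10 µM and 50 µM (x axis). The scale differs between panels: the neighbours of *Rbpj* stay within a root mean square difference of 0.0577 and those of *Notch4* within 0.304.

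Of 63 other Notch pathway genes, 53 were tested. At 10 µM against vehicle 1 changed (0.410% of all genes), at 50 µM against vehicle 7 changed (2 upward and 5 downward, 13.5% of all genes changing), and at 50 µM against 10 µM 9 changed (5 upward and 4 downward, 15.4% of all genes), by edgeR. Their median log2 fold changes were -0.02, -0.01 and 0.00. The other 10 genes (*Dll1*, *Dll3*, *Dll4*, *Dlk1*, *Dlk2*, *Hes5*, *Hes7*, *Hey2*, *Heyl* and *Ptcra*) had at most 14 counts in any library.

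Among ligands, *Jag1* had the highest mean level (14.2 CPM over all libraries) of 8 genes, of which 3 were tested, and it was the only one called. *Jag2* averaged 2.47, 3.02 and 2.40 CPM with vehicle, 10 µM and 50 µM, and the Delta-like ligands did not pass the filter. *Notch3*, the remaining receptor, averaged 0.361, 0.313 and 0.463 CPM.

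Of the 15 genes that process receptors, 0 changed at 10 µM by edgeR (0.410% of all genes) and 0 with DESeq2 (1.86%). At an unadjusted p under 0.05 there were 2 (8.78% of all genes). *Adam17* and *Mfng* were among those that fell at 50 µM against vehicle. *Adam17*, a protease able to release the Notch ectodomain, averaged 239 ± 6.72, 257 ± 11.0 and 180.3 ± 8.78 CPM and fell by 0.40 on the log2 scale (SE 0.066, adjusted p = 0.00148). *Mfng*, a glycosyltransferase that tunes the choice of ligand, fell by 0.32 (SE 0.096, adjusted p = 0.0414), and passed in only 1 of the 8 fits with a library left out (adjusted p = 0.105 without 50 µM replicate 2). *Adam17* fell against 10 µM as well, by 0.51 (adjusted p = 3.73e-05). *Adam10*, the protease that acts on ligand-bound Notch and the gene of this list with the highest CPM, averaged 259.6, 259.9 and 244 CPM and did not pass the threshold.

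Among 15 genes of trafficking and ubiquitin ligases, which route ligands and receptors through endosomes, calls went in both directions. *Mib2*, a ligase for Notch ligands, rose at 50 µM against vehicle from 16.4 ± 2.82 to 27.6 ± 3.98 CPM (log2 fold change 0.76 ± 0.134 SE, adjusted p = 0.00235). *Itch*, a ligase that targets Notch among other proteins, rose from 154 ± 2.54 to 205 ± 13.2 CPM (0.41 ± 0.069, adjusted p = 0.00154). *Numb*, an endocytic inhibitor of Notch, fell from 60.9 ± 4.26 to 46.9 ± 2.82 CPM (-0.37 ± 0.079, adjusted p = 0.00752). All 3 changed in the same direction against 10 µM and in all 8 fits with a library left out. *Nedd4*, a ubiquitin ligase with the highest CPM of the list before any scaling to length, averaged 314 ± 24.7, 226 ± 14.3 and 266 ± 23.5 CPM. It fell at 10 µM (-0.47 ± 0.073, adjusted p = 0.0244), the call of that comparison, but passed in only 2 of the 8 fits with a library left out, and its adjusted p reached 0.139 without 10 µM replicate 2. Against 10 µM, *Nedd4* (adjusted p = 0.0352), *Neurl3* (0.0499) and *Dtx3* (0.0425) were higher at 50 µM, and passed in only 2, 2 and 3 of the 8 fits with a library left out, with adjusted p of up to 0.113 (without 50 µM replicate 4), 0.149 (without 50 µM replicate 2) and 0.112 (without 50 µM replicate 3).

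Among 9 nuclear activators, *Rbpj* had the highest CPM, also per kilobase, and was the only gene called by edgeR. Of 14 corepressors, *Tle1*, a Groucho family member that represses with HES proteins, averaged 13.9 ± 1.52, 13.8 ± 1.50 and 8.76 ± 1.45 CPM. It fell at 50 µM against vehicle (-0.66 ± 0.135, adjusted p = 0.00616) and against 10 µM (-0.66 ± 0.132, adjusted p = 0.00328). *Ncor1*, a corepressor scaffold with the highest CPM of them before any scaling to length, averaged 258 ± 74.9, 229.6 ± 48.1 and 281 ± 24.4 CPM and was not called by edgeR. Its adjusted p at 50 µM against 10 µM was 0.101, but 0.0175 with the offset for exon length, 0.000936 without the filter on low counts and 0.0249 without 10 µM replicate 4, and between 0.0573 and 0.327 in the other alternatives. Of 9 target genes 2 were tested, *Hes1* and *Dtx1*, and neither was called by edgeR, although both had an unadjusted p under 0.05 at 50 µM against vehicle, as had 27.9% of all genes. *Dtx1*, a Deltex gene with the highest CPM of the targets before any scaling to length, averaged 0.589 ± 0.191, 0.663 ± 0.144 and 1.11 ± 0.405 CPM (log2 fold change at 50 µM 0.91 ± 0.408, adjusted p = 0.160).

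**Figure D5:**
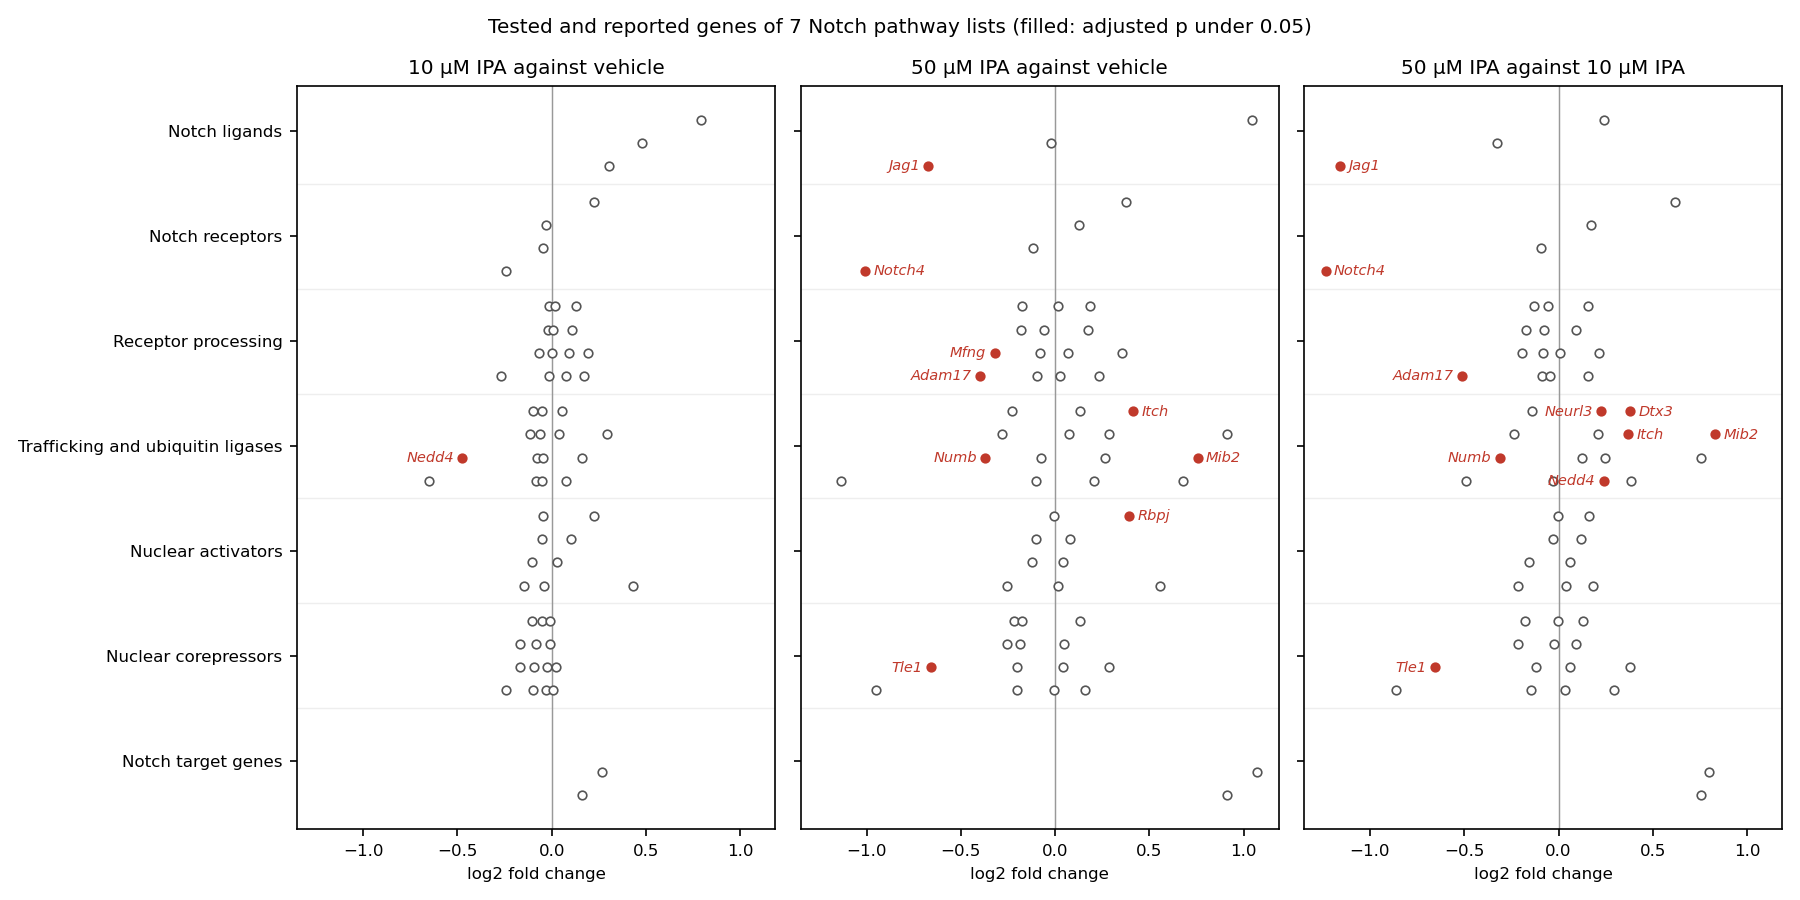
Log2 fold changes (x axis) of the genes of 7 Notch pathway lists that were tested and are reported here (rows, members included), in the 3 comparisons. Filled and named points have an adjusted p below 0.05 by edgeR, and the vertical position within a row only separates points. Calls lie on both sides of 0 at 50 µM, and *Nedd4* is the only one at 10 µM.

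Lymphoid genes were measured because Notch directs T cell development. B cell genes summed to 19.1 to 27.2 CPM with vehicle, 24.2 to 34.1 CPM at 10 µM and 37.9 to 60.9 CPM at 50 µM over 6 genes, and 5 of the 6 rose at 50 µM against vehicle, where 13.5% of all genes changed, 7.00% upward and 6.50% downward. The 6 T cell genes summed to 173 to 204 CPM, 145 to 159 CPM and 279 to 365 CPM, nearly all from *Thy1*, which other marrow cells also carry. Of 4 tested, *Thy1* fell at 10 µM (edgeR, adjusted p = 0.0473, 0.410% of all genes changing), in only 2 of the 8 fits with a library left out. At 50 µM 1 rose against vehicle, and 2 rose against 10 µM, where 15.4% of all genes changed. Summed neutrophil genes were 14995 to 21525 CPM, 14338 to 16622 CPM and 10720 to 15202 CPM, and 4 of 7 fell at 50 µM against vehicle. Of 5 monocyte genes, 2 rose and 2 fell in that comparison. Those that rose were *Lyz2* (5303 CPM with vehicle, 6911 CPM at 50 µM) and *Itgam* (452 and 555 CPM). The others had lower means at 50 µM, *Ccr2* with 347 and 204 CPM, *Cx3cr1* with 8.87 and 4.04 CPM and *Ly6c2* with 580 and 445 CPM. Dendritic cell genes summed to 81.3 to 94.7, 85.7 to 94.4 and 101 to 129 CPM over 6 genes, and 3 rose. Mast cell and basophil genes (6 genes, 1 rose) and megakaryocyte and erythroid genes (6 genes, 1 of 4 tested rose) were measured too. The part of these cells in the Notch results was not tested.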

How the data were processed

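RNA for 12 libraries of cultured mouse bone marrow cells was prepared by the authors with a stranded mRNA kit. Per the study's methods and the labels, reads were trimmed with Atropos, aligned to mm10 with HISAT2 2.2.1 and counted on Ensembl genes with featureCounts 2.0.1. The deposited values are raw read counts per gene, without normalization, and the strand setting is not given in the sources used here. The title of 10 µM replicate 3 repeats that of replicate 2, so its library name was used.

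Genes above 0.5 CPM in at least 2 of 12 libraries were kept (14894 genes, 28302 of the listed genes having no read). Each pair of groups was compared on its 8 libraries with edgeR 4.0.16 (TMM, glmQLFit, glmQLFTest) in R 4.3.3, and p-values were adjusted over all genes by the Benjamini-Hochberg method. The scripts were tested on simulated data. SE were derived from the F statistic, and intervals from the t distribution. CPM used TMM factors over all libraries. Exon lengths and positions are from GENCODE M21 (GRCm38). Alternatives were DESeq2 1.42.0, limma-voom (limma 3.58.1), DESeq2's size factors, no filter, a minimum of 10 counts in each library, all 12 libraries in the fit, a replicate block, leaving out each library, and, chosen after the data had been seen, an offset for exon length (lowess, span 0.3). No 2 libraries were copies.

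The members, gene lists and markers were chosen with earlier results of these data known. Named genes are all members, every other pathway gene called in any comparison, the gene with the highest mean CPM of each pathway list, and for each called member the 3 genes (mean of at least 1 CPM) with the nearest profile. Some genes of these lists are counted but not reported here by name. Other pathway and marker genes were named after their values were seen.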

Additional observations from a re-analysis of the deposited data

Results flagged for a closer look

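Of 54 sets of 4 libraries checked for a library far from the others, 1 stood out, where chance flags about 1 in 20. *Notch1* in 50 µM replicate 3 was at 319 CPM, while the other 3 libraries of that group lay between 393 and 400.0 CPM. The same library had the lowest slope on exon length of all 12 (-0.0664) and the lowest *Notch2* (243 CPM). Without it *Notch1* was 0.25 higher on the log2 scale at 50 µM than at 10 µM (edgeR, adjusted p = 0.0257), against 0.17 (adjusted p = 0.168) with it. The part of transcript length in this value was not tested beyond the offset for exon length, under which the difference was 0.16 with an adjusted p of 0.0537.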

How the results depend on the processing

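For the 8 tested members and their comparisons, 361 of 381 alternative values kept their direction and side of the threshold, 9 moved past it, 1 lost it (*Notch4* at 50 µM against vehicle without 50 µM replicate 4, adjusted p = 0.0586) and 10 changed sign. At 10 µM against vehicle the number of members called, 0, became 2 with DESeq2 (1.86% of all genes called), 1 without the filter (0.600%) and 1 with the offset for exon length (0.685%; *Jag1*, adjusted p = 0.0378), against 0.410% of all genes with edgeR, and stayed at 0 when any 1 library was left out. At 50 µM against vehicle it was 2 to 4 when a library was left out, and at 50 µM against 10 µM also 2 to 4, the highest without 50 µM replicate 3. The 1 other pathway gene called at 10 µM became 0 with the replicate block and 0 to 1 when a library was left out. The cause was not tested. At 10 µM against vehicle, leaving out a library moved the log2 fold change of *Notch1* between -0.159 and 0.031, *Notch2* between -0.092 and 0.033, *Maml1* between -0.111 and 0.017 and *Hes1* between -0.227 and 0.613, and limma-voom gave -0.096 for *Hes1*. For *Dtx4* at 50 µM against vehicle the range was -0.015 to 0.143. With the offset, the SE of *Notch1* at 10 µM was 0.064 in place of 0.121, and *Rbpj* at 50 µM against vehicle had an adjusted p of 0.00785.

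Replicate numbers did not pair the libraries: same-numbered libraries correlated between -0.24 and 0.14 in their deviations from the group means, and not every library correlated best with its own number. With the replicate block 3 genes were called over all genes at 10 µM, against 61 without it, and the member counts were again 0, 3 and 2. With 4 libraries per group, counts of at most 26 per library, as for *Hes1*, *Hey1* and *Nrarp*, limit what can be detected.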

Other observations

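Among the 10 pathway genes below the filter, *Dlk2* and *Ptcra* had uneven counts, and were picked after their values had been seen. *Dlk2*, a Delta-like membrane protein without the receptor-activating domain of classical ligands, had 7 counts summed over the 4 vehicle libraries, 2 over the 10 µM libraries and 33 over the 50 µM libraries, with 2 to 14 per library at 50 µM and 0 to 4 with vehicle. *Ptcra*, which encodes the pre-T cell receptor alpha chain, had 4, 2 and 13 counts. No test was made on these counts.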
